A study of Homo sapiens with 5 samples.

Results

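Described here are the D-type cyclins and their catalytic partners: CCND1, CCND2 and CCND3, which encode cyclins D1, D2 and D3, and CDK4 and CDK6, which encode the kinases that these cyclins activate. The members were chosen as the rows of the deposited count table whose GENCODE symbol is one of these names, which gave 5 of the 64252 gene identifiers in the table, 3 cyclins and 2 kinases. RNA was measured in wild-type RPE-1 cells, a human line that was derived from the retinal pigment epithelium and made immortal. The cells received either a control siRNA (siCtrl, 3 libraries) or pooled siRNAs that target FAM53C (siFAM53C, 2 libraries), each at 5 µM by the labels and carried in by a lipid transfection reagent. All libraries were made from polyadenylated RNA taken 48 hr after transfection. The comparison asked how expression changed when FAM53C was knocked down. It rests on 1 cell line, 1 time point and siRNAs given only as a pool, and nothing in the labels says that the libraries came from separate cultures, so p-values measure only the spread between these libraries, which may be technical.

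D-type cyclins are made in response to mitogens. Bound to CDK4 or CDK6, they phosphorylate the retinoblastoma protein RB and its relatives, which then release E2F transcription factors and let cells enter S phase. Inhibitors of the INK4 family bind the kinases directly. The cyclins themselves are short-lived proteins: phosphorylation of a conserved threonine, by DYRK1A among other kinases, marks them for ubiquitin ligases and destruction. RNA counts do not measure that step.

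The libraries held 24099968, 19694561 and 19260124 counts on genes in siCtrl and 25615415 and 22993116 in siFAM53C. FAM53C, the targeted gene, was at 60.9, 59.7 and 57.6 CPM (counts scaled to a common library total with TMM factors) in siCtrl and at 14.2 and 22.3 in siFAM53C, lower in each siFAM53C library than in any siCtrl library. Of the 15341 genes with enough counts to test, 533 were called lower and 75 higher in siFAM53C at an adjusted p below 0.05, or 415 and 121 with scaling by library totals only. The libraries also split across the conditions: along the leading principal component (39.8% of the variance of log2 CPM), scores were 33.7 for siCtrl replicate 3 and 44.9 for siFAM53C replicate 2, but -31.5 and -47.4 for the other controls and 0.264 for siFAM53C replicate 1. Of 10 markers of the retinal pigment epithelium, MITF, OTX2 and PAX6 were at 13.5 to 48.8 CPM, and RPE65, the visual cycle isomerase that defines the mature tissue, was at 0 in all 5 libraries. In all, 5 of the 10 stayed under 1 CPM in every library. The epithelial keratins KRT8 and KRT18 were at 148 to 328 CPM and VIM, the mesenchymal filament vimentin, at 3226 to 4146, while among 5 markers of other cell types CDH5 of endothelium and DES of muscle were at 0, PTPRC and PECAM1 at no more than 1.05, and the neuronal MAP2 at 20.8 to 39.3.

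Among the 5 genes, CDK6 passed the test. It fell in siFAM53C to 29.0% of its siCtrl level, while CCND1, CCND3 and CDK4 did not pass the test and CCND2 had too few counts to be tested. Some cell type markers also differed between conditions. COL1A1, a collagen of mesenchymal cells, was the 1 tested marker that passed the test, from 15.8 to 18.6 CPM in siCtrl to 29.2 and 29.4 in siFAM53C (log2 fold change 0.74, SE 0.141, Benjamini-Hochberg adjusted p = 0.03098 by the edgeR quasi-likelihood test). The conditions did not overlap for KRT8 (log2 fold change 0.32), OTX2 (-0.20), PAX6 (-0.36) and CDH2 (-0.44), which did not pass. Such separation was common, since 18.8% of all tested genes lay wholly lower and 16.7% wholly higher in siFAM53C. The summed level was 384 to 467 CPM in siCtrl and 500 to 502 in siFAM53C for the 4 epithelial markers, of which EPCAM and CDH1 were at 0 to 0.17, against 8552 to 11679 and 8959 to 11041 for the 5 mesenchymal ones, and 90.3 to 112 and 80.5 to 93.4 for the 10 retinal ones. Any part of these in the fall of CDK6 was not tested. In bulk RNA, less RNA per cell cannot be told apart from fewer cells of a kind that makes it. Thus 1 of the 4 tested members was called lower, where 3.47% of all tested genes were called lower, and 0 of 4 were called higher, where 0.489% of all tested genes were. At an unadjusted p below 0.05 the number of members that were higher was also 0 by the edgeR quasi-likelihood test, by DESeq2 and by limma-voom, where 10.5% of all tested genes were lower and 6.61% higher at that threshold by edgeR.

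**Figure D1:**
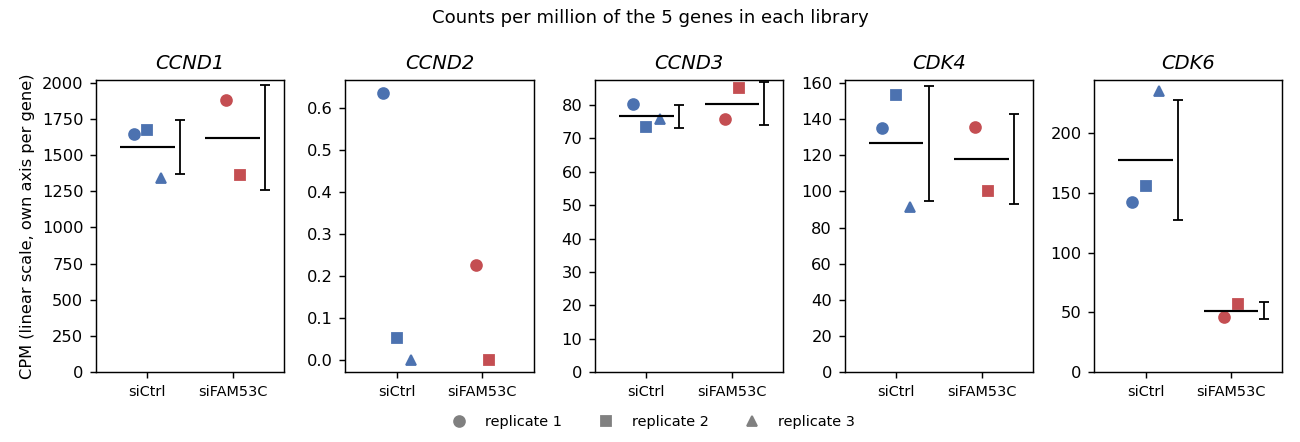
CPM of CCND1, CCND2, CCND3, CDK4 and CDK6 (vertical axis, linear, with an axis of its own for each gene) in the 3 siCtrl libraries (blue) and the 2 siFAM53C libraries (red). Symbols mark replicates, horizontal lines group means and bars the SD, which are left out for CCND2 because it had 0 to 15 counts per library. The CDK6 values of siFAM53C, 46.3 and 56.7, lie below the lowest siCtrl value of 142.5, while the values of the other genes overlap between conditions.

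An earlier analysis of these fold changes, with CDK6 among the genes used, linked lower values in siFAM53C to the heptamer GACAAGA in the 3' untranslated region (UTR) of the message. The values of that earlier analysis are not given here. The heptamer was therefore looked up in the longest annotated 3' UTR of each member, on the message strand only, in GENCODE 44 on GRCh38. Because CDK6 took part in that earlier analysis, the matches are a description and no test. CDK6 holds it 1 time in 10219 bases, at position 489, in chr7:92614633-92614662 on the minus strand. The targeted gene FAM53C also holds it 1 time, in 2770 bases, at position 179, in chr5:138347127-138347156 on the plus strand. The 2 sites are shown because they are the sites in the gene that changed and in the gene that was silenced, with the heptamer in capitals and 5' to 3' on the message strand.
CDK6: tttttgtaaacGACAAGAataattcaattt
FAM53C: agactggccggGACAAGAtaaacggagctg
Outside the heptamer, no likeness between the 2 sites was measured. The letters GACAAGA were not found in the 3' UTRs of CCND1 (3192 bases), CCND2 (5344 bases), CCND3 (1006 bases) and CDK4 (1022 bases). Of 19248 annotated 3' UTRs, 10.3% hold the heptamer. The share was larger among longer UTRs. Among UTRs within 1.2-fold of the length in question the share was 51% for CDK6, 27.6% for CCND2, 17.6% for CCND1, 16.2% for FAM53C, 5.08% for CDK4 and 4.74% for CCND3. The sequences of the pooled siRNAs were not available here, so whether any of them pairs with the heptamer was not looked up. Whether the heptamer has a part in the fall of CDK6 was not tested.

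CCND1, the gene of cyclin D1 (ENSG00000110092, chr11:69641156-69654474, plus strand of GRCh38), had 38830, 32004 and 25560 counts in siCtrl and 49675 and 32133 in siFAM53C. These were 1648, 1675 and 1339 CPM in siCtrl and 1877 and 1364 CPM in siFAM53C. The highest library was siFAM53C replicate 1, the lowest were siCtrl replicate 3 and siFAM53C replicate 2, and the conditions overlapped. The log2 fold change of siFAM53C against siCtrl was 0.06 (SE 0.174, 95% confidence interval -0.34 to 0.46), with a Benjamini-Hochberg adjusted p of 0.9084 by the edgeR quasi-likelihood test. The 2 low libraries are those with high scores on the leading principal component. To compare within this split, siFAM53C replicate 2, the nearer to siCtrl replicate 3 by score, was set against it, and siFAM53C replicate 1, whose score lies about midway, was set against the other controls. Compared so, siFAM53C replicate 1 differed from siCtrl replicates 1 and 2 by 0.19 and 0.16 in log2 CPM, and siFAM53C replicate 2 differed from siCtrl replicate 3 by 0.03, while siFAM53C replicate 1 differed from siCtrl replicate 3 by 0.49. Of its 4761 exon bases, 497 are shared with LTO1 on the opposite strand, which had 362 to 577 counts per library and a log2 fold change of 0.02.

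CCND2, the gene of cyclin D2 (ENSG00000118971, chr12:4269771-4305353, plus strand), was hardly detected. It had 15, 1 and 0 counts in siCtrl and 6 and 0 counts in siFAM53C. Of the 22 counts, 21 lay in replicate 1 of the conditions, and 1 library of each condition had none. A count of 0 allows up to 0.157 CPM in siCtrl replicate 3 and 0.127 CPM in siFAM53C replicate 2, taken as 3 counts and covering counting error only, so a difference between conditions was not detectable at this depth. Fitted without the filter on low counts, its log2 fold change was -1.0 with an SE of 1.54. CCND2-AS1, which shares 162 exon bases with CCND2 on the opposite strand, had 0 counts in all 5 libraries, and a protein-coding gene model that shares 999 exon bases with it on the same strand was not analysed here.

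CCND3, the gene of cyclin D3 (ENSG00000112576, chr6:41934934-42050357, minus strand), was the steadiest of the tested members. Its counts were 1892, 1404 and 1447 in siCtrl and 2006 and 2001 in siFAM53C, or 80.3, 73.5 and 75.8 CPM against 75.8 and 84.9 CPM. The siFAM53C libraries lay inside the siCtrl range or just above it, and over all 5 libraries log2 CPM spanned 0.21, against 0.49 for CCND1. The log2 fold change was 0.07 (SE 0.107, 95% confidence interval -0.18 to 0.32), with a Benjamini-Hochberg adjusted p of 0.8137 by the edgeR quasi-likelihood test. CCND3 shares 24 exon bases with an opposite-strand long noncoding RNA that had 0 counts in every library. TAF8, a subunit gene of the transcription factor TFIID that starts 156 bp from the start of CCND3 on the other strand, had a log2 fold change of 0.27 and an adjusted p of 0.4212 from the same edgeR quasi-likelihood test.

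CDK4 (ENSG00000135446, chr12:57747727-57756013, minus strand) had 3177, 2931 and 1748 counts in siCtrl and 3579 and 2361 in siFAM53C. Scaled, these were 134.9, 153.4 and 91.6 CPM in siCtrl and 135.3 and 100.2 CPM in siFAM53C. As for CCND1, siCtrl replicate 3 and siFAM53C replicate 2 were the 2 low libraries, and both siFAM53C values fell within the siCtrl range. The log2 fold change was -0.10 (SE 0.233, 95% confidence interval -0.66 to 0.45), with a Benjamini-Hochberg adjusted p of 0.877 by the edgeR quasi-likelihood test. Compared within the split in the same way, siFAM53C replicate 1 differed from siCtrl replicates 1 and 2 by 0.00 and -0.18 in log2 CPM, and siFAM53C replicate 2 differed from siCtrl replicate 3 by 0.13, while siFAM53C replicate 1 differed from siCtrl replicate 3 by 0.56. Of the 3094 exon bases of CDK4, 1369 are shared with TSPAN31, a tetraspanin gene on the opposite strand, so that its value is uncertain if the counting did not use strand. TSPAN31 had 190, 116 and 164 counts in siCtrl and 208 and 198 in siFAM53C. It was thus far below CDK4 in each library, with a log2 fold change of 0.10. How reads on the shared bases were counted is not known, so the CDK4 levels and the shares built on them below carry the same uncertainty. MARCHF9, a membrane ubiquitin ligase gene that starts 910 bp from the start of CDK4 on the other strand, was at 24.1, 24.1 and 13.9 CPM in siCtrl and 23.6 and 13.4 CPM in siFAM53C, low in the same 2 libraries as CDK4.

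CDK6 (ENSG00000105810, chr7:92604921-92836573, minus strand) had 3356, 2970 and 4481 counts in siCtrl and 1226 and 1336 in siFAM53C. It was at 142.5, 155.4 and 234.8 CPM in siCtrl and at 46.3 and 56.7 CPM in siFAM53C. Every siFAM53C library lay below every siCtrl library, and siCtrl replicate 3, which was the lowest control for CCND1 and CDK4, was the highest for CDK6. The mean dropped from 178 ± 50 (SD, n = 3) to 51.5 ± 7.33 CPM (SD, n = 2), and the log2 fold change was -1.78 (SE 0.238, 95% confidence interval -2.35 to -1.22, Benjamini-Hochberg adjusted p = 0.009757 by the edgeR quasi-likelihood test). Ordered by log2 fold change from the lowest, it ranked 118 of the 15341 tested genes. Groups that do not overlap were common in a comparison of 3 with 2 libraries: 18.8% of tested genes lay wholly lower and 16.7% wholly higher in siFAM53C.

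All 6 differences between a siFAM53C and a siCtrl library were below 0 for CDK6, from -2.34 to -1.33 in log2 CPM, against 2 of 6 for CCND1, 1 of 6 for CCND3 and 3 of 6 for CDK4. Within the library split the CDK6 differences were -1.62 and -1.74 for siFAM53C replicate 1 and -2.05 for siFAM53C replicate 2. Adding the split to the model gave -1.84. The fall kept its call in 14 of 15 other settings, and the exception was the fit without siFAM53C replicate 1, where the log2 fold change of -1.65 had an adjusted p of 0.0905 from the edgeR quasi-likelihood test, with 1 siFAM53C library left and the spread taken from siCtrl. CDK6-AS1, which shares 86 exon bases with CDK6 on the opposite strand and starts 206 bp away, had 8, 8 and 7 counts in siCtrl and 5 and 9 in siFAM53C, too few to test.

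**Figure D2:**
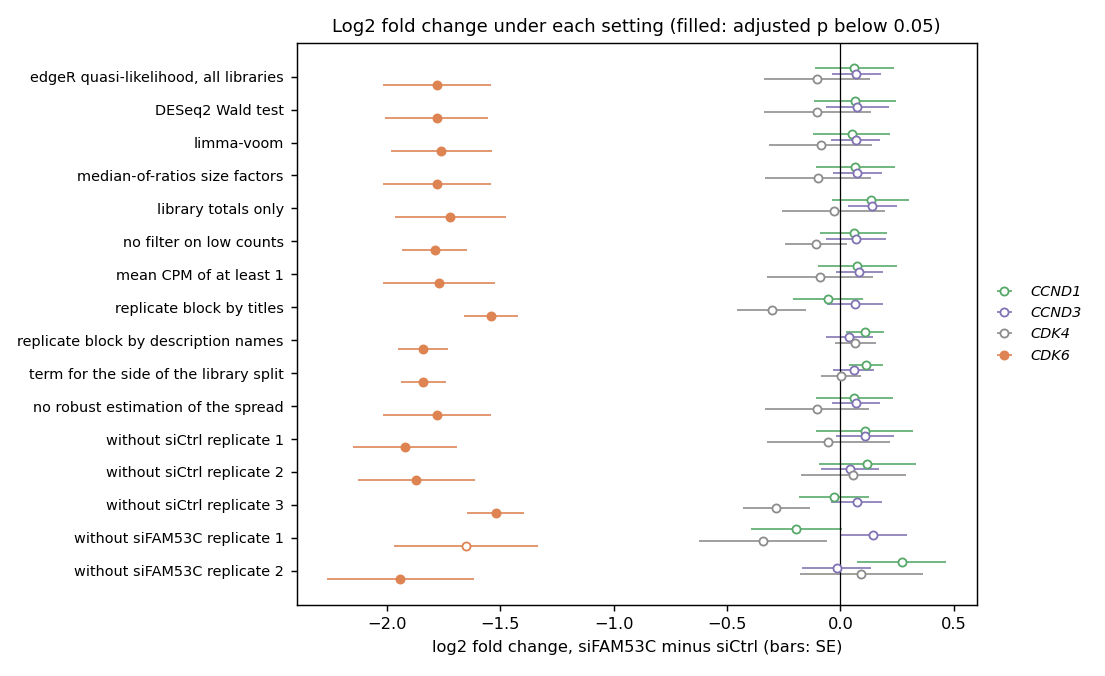
Log2 fold change of siFAM53C minus siCtrl (horizontal axis, bars are the SE) for CCND1, CCND3, CDK4 and CDK6 under each setting (vertical axis), with filled points where the adjusted p was below 0.05. CDK6 lies between -1.94 and -1.52 throughout and is open only without siFAM53C replicate 1, while the other 3 genes stay between -0.34 and 0.27 and are open throughout.

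Levels of different genes were set side by side as CPM per kilobase of exon. In siCtrl the order was CCND1 (326 ± 39.2, SD, n = 3), CDK4 (40.9 ± 10.2), CDK6 (14.5 ± 4.08), CCND3 (13.3 ± 0.604) and CCND2 (below 0.08 in each library). CDK6 and CCND3 did not differ beyond their spread there, since the CDK6 values of 11.6, 12.7 and 19.2 enclosed the CCND3 values of 13.9, 12.8 and 13.2. In siFAM53C the order of the middle pair was set apart: CCND3 was at 13.2 and 14.7 and CDK6 at 3.79 and 4.63 CPM per kilobase. CCND1 exceeded 99.5% of tested protein-coding genes in each condition, CDK4 92.6% in siCtrl and 92.5% in siFAM53C, and CCND3 73.8% and 75.9%. CDK6 exceeded 75.9% in siCtrl and 44.5% in siFAM53C. The length used matters for CDK4, with 3094 bp of exon over all transcripts but 1865 bp in the longest coding transcript. By the latter, CDK4 was at 67.9 CPM per kilobase in siCtrl. Length also matters for CCND3, whose exons add up to 5761 bp over all transcripts but to 2394 bp in the longest coding transcript. With that length CCND3 was at 32 CPM per kilobase in siCtrl and CDK6 at 15.2, so that their order in siCtrl is not fixed by these data.

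**Figure D3:**
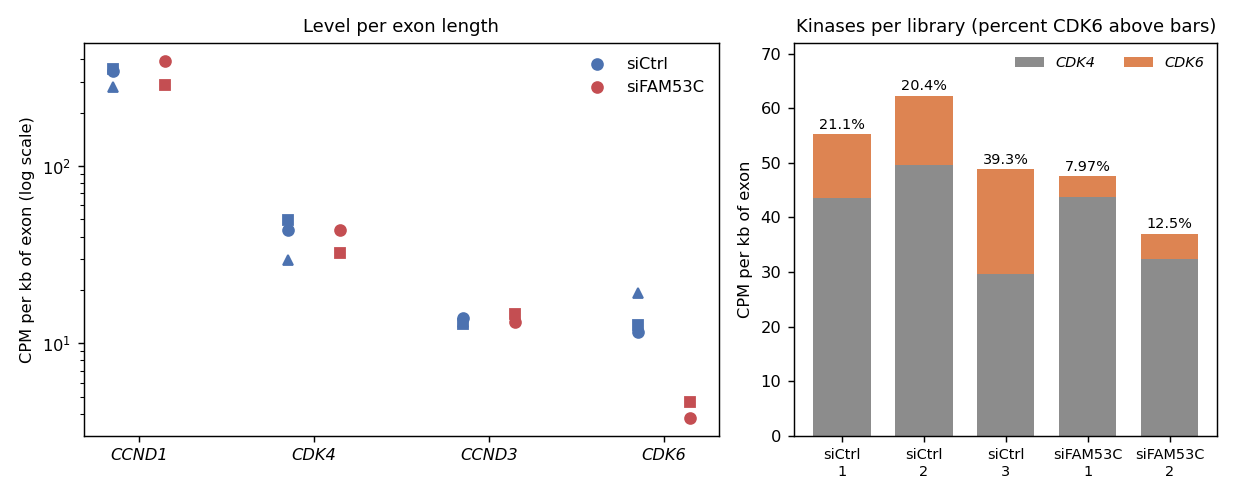
Left, CPM per kilobase of exon (vertical axis, logarithmic) of the 4 tested members in siCtrl (blue) and siFAM53C (red), with circles, squares and triangles for replicates 1, 2 and 3. Right, CDK4 (grey) and CDK6 (orange) stacked per library on a linear axis, with the percentage contributed by CDK6, 20.4% to 39.3% in siCtrl and 7.97% and 12.5% in siFAM53C.

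CDK6 thus became a smaller part of the kinase RNA. Of the sum of CDK4 and CDK6 per kilobase, CDK6 made up 21.1%, 20.4% and 39.3% in siCtrl and 7.97% and 12.5% in siFAM53C. The high value of siCtrl replicate 3 came with both its high CDK6 and its low CDK4. The mean share was 26.9% in siCtrl and 10.2% in siFAM53C, a difference of -16.7 percentage points with no overlap between conditions (two-sided exact permutation test, p = 0.2). Without siCtrl replicate 3 the difference was -10.5. With transcript lengths the share was 14.5%, 13.9% and 29.1% in siCtrl and 5.19% and 8.30% in siFAM53C. The difference was then -12.4 percentage points. The permutation p of 0.2 is the smallest that 3 against 2 libraries allow, so no measure of this kind could pass 0.05. The share was 1 of 7 such measures, and the Benjamini-Hochberg adjusted p over the 7 was 0.35. The log2 ratio of CDK6 to CDK4 was -1.90, -1.96 and -0.63 in siCtrl and -3.53 and -2.81 in siFAM53C, a difference of -1.67 with the same permutation p of 0.2 and adjusted p of 0.35.

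The summed kinases were at 55.2, 62.3 and 48.8 CPM per kilobase in siCtrl and 47.5 and 37.0 in siFAM53C, a difference of -13.2 (exact permutation p = 0.2, adjusted 0.35) that was -7.92 without siFAM53C replicate 2. The ranges came close to each other, with siFAM53C replicate 1 just below siCtrl replicate 3. The summed cyclins were at 360, 365 and 294 in siCtrl and 408 and 301 in siFAM53C, overlapping, with a difference of 14.6 (exact permutation p = 0.8, adjusted p = 1). The log2 ratio of summed cyclins to summed kinases was 2.71, 2.55 and 2.59 in siCtrl and 3.10 and 3.02 in siFAM53C. This ratio was higher by 0.45 in siFAM53C (exact permutation p = 0.2, adjusted 0.35) and by 0.35 with transcript lengths. Cyclin RNA exceeded kinase RNA in each library.

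Within the cyclins the balance did not differ beyond the spread. CCND1 made up 96.1%, 96.5% and 95.5% of D-type cyclin RNA per kilobase in siCtrl and 96.8% and 95.1% in siFAM53C (exact permutation p = 1, adjusted p = 1). With transcript lengths the means were 91.9% and 91.7%. The log2 ratio of CCND3 to CCND1 was -4.61 on average in siCtrl and -4.59 in siFAM53C (exact permutation p = 1, adjusted p = 1), with the siFAM53C values of -4.90 and -4.28 on either side of all siCtrl values.

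Around these 5 genes, 75 other genes of the pathway were grouped in 6 lists by role, of which 74 were tested. Of the 74, 4 were called lower and 2 higher, or 18 lower and 14 higher without overlap between conditions, where 3.47% and 0.489% of all tested genes were called and 18.8% and 16.7% did not overlap. The median log2 fold change was -0.06 over the 74 genes and 0.02 over all tested genes.

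The 6 tested inhibitors of cyclin D kinases all lay above 0, with a median of 0.23, where 7950 of all 15341 tested genes lay above 0. In the other lists, genes below 0 numbered 9 of 15 for cyclin D phosphorylation and destruction and 4 of 7 for assembly and activation. They numbered 13 of 20 for mitogen signalling and transcription, 7 of 10 for kinase substrates and 12 of 16 for RB-E2F targets. These signs were not tested. Of the inhibitors 1 rose and 0 fell, where 0.489% of all tested genes were called higher and 3.47% lower. CDKN2B, which encodes the INK4 inhibitor p15, was at 8.91, 8.32 and 10.5 CPM in siCtrl and 19.3 and 18.0 in siFAM53C. The fitted log2 difference was 1.01 (SE 0.177, Benjamini-Hochberg adjusted p = 0.02289 by the edgeR quasi-likelihood test), the 2 siFAM53C libraries lay well above the controls, and the call was lost on leaving out any 1 library other than siCtrl replicate 3, with adjusted p-values up to 0.195 and log2 differences of 0.939 to 1.12 throughout. CDKN1B, the gene of p27, had the next largest value at 0.45, with an adjusted p of 0.09119 from the edgeR quasi-likelihood test. Named for their roles and outside the rule were CDKN2A and CDKN1A. CDKN2A, whose locus encodes p16 and ARF, was at 0.03 with an SE of 0.196. CDKN1A, the p53 target p21, was at 0.26 with an SE of 0.39 and an adjusted p of 0.8146 by the edgeR quasi-likelihood test. CDKN1A was at 354, 331 and 182 CPM in siCtrl and 452 and 240 in siFAM53C. It was lowest in siCtrl replicate 3 and siFAM53C replicate 2. Compared within the library split, each siFAM53C value lay above its controls, while the conditions as a whole overlapped. The split was drawn from these same data, and siFAM53C replicate 1 has a score about midway, so this order is a description and no test. CDKN1C had too few counts to test.

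Among 15 genes that phosphorylate cyclin D or destroy it, 3 fell and 0 rose, with a median of -0.09. The test called 3.47% of all tested genes lower and 0.489% higher. At an unadjusted p below 0.05, 3 were lower and 0 higher by the edgeR quasi-likelihood test, DESeq2 and limma-voom. By edgeR, 10.5% of all tested genes were lower and 6.61% higher at that threshold. SKP2, the F-box subunit that recognizes p27 and has also been linked to cyclin D1, was at 62.3, 67.9 and 57.9 CPM in siCtrl and 22.4 and 18.8 in siFAM53C. The groups lay far apart, and the log2 difference of -1.60 passed the test (SE 0.137, Benjamini-Hochberg adjusted p = 0.001138 by the edgeR quasi-likelihood test), called in each of 15 other settings. CUL4A, a cullin scaffold of ubiquitin ligases, was at 158, 160 and 178 CPM in siCtrl and 94.2 and 93.7 in siFAM53C. Its log2 fold change of -0.81 passed the test (SE 0.106, adjusted p = 0.00637, edgeR), and the call was lost without either siFAM53C library (adjusted p = 0.079 without replicate 1 and 0.0665 without replicate 2) at values of -0.823 and -0.813. GSK3B, a kinase of cyclin D1, was at 117, 120 and 123 CPM in siCtrl and 83.3 and 88.6 in siFAM53C. It fell by 0.48 (SE 0.0984, adjusted p = 0.04027, edgeR), a call lost on leaving out any 1 library other than siCtrl replicate 3, with values of -0.526 to -0.441, and with scaling by library totals only (-0.408, adjusted p = 0.0735).

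The other genes of that list did not pass the test. DYRK1A, named for its role as a cyclin D kinase and not by the rule for named genes, had a log2 fold change of -0.13 with an adjusted p of 0.6681 in the edgeR quasi-likelihood test. CRYAB, a small heat shock protein that assists an F-box ligase of cyclin D1, had the largest value at 1.22 but was between 0.157 and 2.38 CPM. The heptamer GACAAGA occurs 1 time in the longest 3' UTRs of SKP2 and CUL4A and was not found in those of GSK3B, CDKN2B, CTNNB1 and E2F2, which were looked up after their values were seen. In UTRs of like length it occurs in 27.6% for SKP2, 19.3% for CUL4A and 27.2% for GSK3B. For CDKN2B, CTNNB1 and E2F2 these shares were 17.1%, 5.93% and 18.8%. The site of SKP2 lies at position 5233 of 5347 bases, near the end of its longest annotated 3' UTR.

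Of 7 genes that assemble or activate the complexes, 0 were called lower and 0 higher, with a median of -0.03 and values from -0.15 for HSP90AB1, an HSP90 chaperone gene, to 0.79 for CDK7, the activating kinase. At an unadjusted p below 0.05 the count was also 0 by the edgeR quasi-likelihood test, DESeq2 and limma-voom. Over all tested genes, edgeR called 3.47% lower and 0.489% higher, or 10.5% and 6.61% at the unadjusted threshold. Counts of 0 among 7 genes thus do not set this list apart. CDK7 was at 0.425, 0.105 and 8.38 CPM in siCtrl and 10.1 and 0.0849 in siFAM53C. It was thus close to 0 in 3 libraries of both conditions and near 10 in the other 2, and its SE was 2.24.

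Upstream of the cyclins, 1 of 20 genes of mitogen signalling and transcription fell and 0 rose, with a median of -0.12. Over all tested genes, 3.47% were called lower and 0.489% higher. At an unadjusted p below 0.05, 5 were lower and 1 higher by the edgeR quasi-likelihood test, DESeq2 and limma-voom, where by edgeR 10.5% of all tested genes were lower and 6.61% higher. CTNNB1, the gene of β-catenin, which with TCF and LEF factors activates transcription of CCND1, was at 351, 366 and 308 CPM in siCtrl and 200 and 191 in siFAM53C. Its log2 fold change of -0.81 passed the test (SE 0.119, Benjamini-Hochberg adjusted p = 0.01151 by the edgeR quasi-likelihood test), while the CCND1 values above overlapped. The call was lost on leaving out any 1 library other than siCtrl replicate 3, with adjusted p-values up to 0.118 and log2 fold changes of -0.868 to -0.754 throughout. The largest value of the list was that of the small GTPase HRAS, which did not pass the test. It was at 41.2, 12.6 and 8.12 CPM in siCtrl and 0.869 and 1.66 in siFAM53C, with a fitted log2 value of -4.04 (SE 0.974, adjusted p = 0.1303, edgeR).

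Downstream, 0 of 10 known substrates of the kinases were called lower and 0 higher, with a median of -0.13. At an unadjusted p below 0.05, 1 was lower and 0 higher by the edgeR quasi-likelihood test, DESeq2 and limma-voom, beside the 10.5% and 6.61% of all tested genes by edgeR. That gene was RBL1, which encodes the RB relative p107 and had a log2 fold change of -0.48 and an adjusted p of 0.06592 by the edgeR quasi-likelihood test. The next largest value was 0.26 for SMAD3, a transcription factor of TGF-β signalling, and RB1 itself was at -0.13. Of 16 genes that RB and E2F control, 1 rose and 0 fell, with a median of -0.08. The shares of all tested genes called were 0.489% higher and 3.47% lower. E2F2, an activating E2F factor, was at 19.2, 18.7 and 18.7 CPM in siCtrl and 32.8 and 34.3 in siFAM53C. The libraries of each condition lay close together, and its log2 difference was 0.83 (SE 0.125, Benjamini-Hochberg adjusted p = 0.01259 by the edgeR quasi-likelihood test), a call lost on leaving out any 1 library other than siCtrl replicate 3, with values of 0.797 to 0.856. The other 15 lay between -0.25, for CCNE2, and 0.28, for E2F1 and RRM2. At an unadjusted p below 0.05, 0 of the 16 were lower by the edgeR quasi-likelihood test, DESeq2 and limma-voom. Those higher numbered 2, 1 and 2 by these tools. By edgeR, 10.5% of all tested genes were lower and 6.61% higher.

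**Figure D4:**
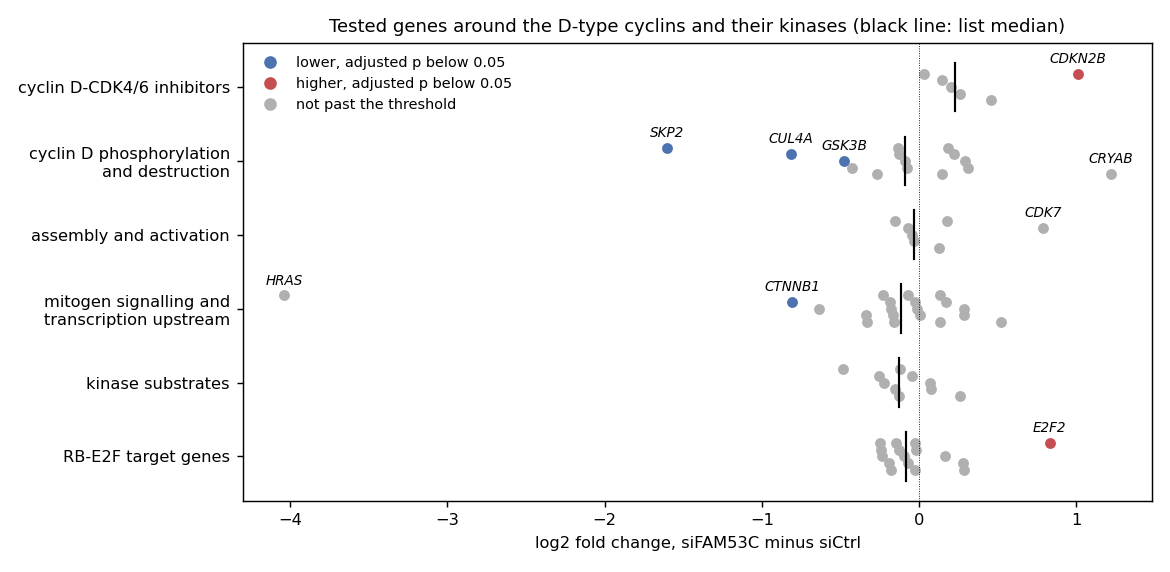
Log2 fold change of siFAM53C minus siCtrl (horizontal axis) for the 74 tested genes of the 6 lists (vertical axis, points spread only for legibility), with black lines at list medians. Genes called lower (blue: SKP2, CUL4A, GSK3B and CTNNB1) and higher (red: CDKN2B and E2F2) are named together with HRAS, CRYAB and CDK7, which did not pass the test.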

How the data were processed

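RNA-seq counts per gene were analysed for 3 siCtrl and 2 siFAM53C libraries of RPE-1 cells. The deposited values are raw counts, which the authors made from paired reads with cutadapt 2.10 (version from the submitters' processing notes), HISAT2 on hg38 and featureCounts. The authors state that the alignment step used reverse strandedness. The strand setting of the counting step and the annotation release are not given in the sources used here. The authors describe duplicates, and all 5 libraries were used. Samples were grouped by their labels and each column was matched to a sample by name. Totals of 19260124 to 25615415 counts per library limit the precision for low genes.

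Symbols, positions and exon lengths are from GENCODE 44 on GRCh38, which matched 56105 of 64252 identifiers and may differ from the authors' annotation. Counts were filtered with filterByExpr (minimum count 10, minimum total 15), scaled by TMM factors and compared with edgeR 4.0.16 (R 4.3.3) by the quasi-likelihood test with robust estimation and the condition as the only term, with Benjamini-Hochberg adjustment over 15341 genes and a threshold of 0.05. Log2 CPM used a prior count of 2. The fits were also run on simulated counts with known changes. Those counts were drawn without the library split, so that run does not bear on how the split affects calls. Shares and ratios within a library used CPM per kilobase of all annotated exons, with 0.5 counts added in log ratios, and two-sided exact permutation tests (scipy 1.17.1). Library pairs within siCtrl differed by more than sampling noise, so each library was counted once.

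The members and the 6 lists of 75 genes were chosen with earlier results of these data known. Named genes were the members, FAM53C, genes that share exon bases with a member or start within 1 kb of its start, listed genes past the threshold or with the 2 largest changes of their list, and, for members ranging over at least 1 in log2 CPM, the 5 genes of at least 10 CPM with the nearest profile. DYRK1A, CDKN1A, CDKN2A and RB1 were named for their roles, and CCNE2 and RRM2 as ends of a range. FOSL1 was named for its DESeq2 call and CDKN1C as too low to test. These genes stand outside the rule and were named after their values were seen. Alternatives were DESeq2 1.42.0, limma-voom (limma 3.58.1), other scaling and filters, replicate blocks, a term for the library split, other gene lengths, a pseudocount of 1, each library left out and, added after seeing the data, no robust estimation.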

Additional observations from a re-analysis of the deposited data

How the results depend on the processing

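The fall of CDK6 kept its direction in all 15 alternatives and its call in 14. Leaving out 1 library gave -1.94 to -1.52, with the call lost without siFAM53C replicate 1 (-1.65). The values of CCND1, CCND3 and CDK4 passed the threshold in none of their alternatives, and their directions were not stable: CCND1 was at -0.0541 with a replicate block by the titles and at -0.194 to 0.27 with 1 library left out, CCND3 at -0.0161 to 0.144, and CDK4 at 0.0661 with a replicate block by the description names, 0.00227 with a term for the library split and -0.343 to 0.0926 with 1 library left out. FAM53C and SKP2 were called in all 15 alternatives. DESeq2 also called CDKN1B, FOSL1, HRAS and RBL1.

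The number of genes called moved more. Lower genes numbered 890 with DESeq2, 961 without a filter, 856 and 1350 with the replicate block by titles and by names, 1636 with the library split and 157 to 886 with 1 library left out. Higher genes numbered 257, 375, 355, 642, 1037 and 6 to 414 in the same order, and 121 with library totals only. Of the listed genes, 7 were lower and 6 higher with the block by names, 9 and 9 with the library split, and 1 to 5 and 0 to 4 with 1 library left out, and 4 were higher with DESeq2 and without a filter. Without siCtrl replicates 1, 2 and 3 in turn, 209, 180 and 886 genes were lower, and without siFAM53C replicates 1 and 2, 157 and 199. The cause was not tested.

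The replicate numbers do not pair the libraries by any label. Deviations of same-numbered libraries correlated at 0.169 and -0.285 by the titles, and at 0.169 and 0.371 by the description names, under which siFAM53C replicate 2 carries the number of siCtrl replicate 3.

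With 1 library left out, the difference in the log2 ratio of CCND3 to CCND1 ranged from -0.29 to 0.33, in the CCND1 share from -0.94 to 0.718 percentage points in the CDK6 share from -20 to -10.5 percentage points, in summed cyclins from -38.5 to 67.8 and in summed kinases from -18.4 to -7.92 CPM per kilobase. With transcript lengths the CDK6 share differed by -12.4 percentage points and the log2 ratio of summed cyclins to kinases by 0.35. Depth limits CCND2, whose fitted value without the filter is not a bound, and 2 siFAM53C libraries limit every comparison.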

Other observations

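The genes whose profile over the 5 libraries lay nearest to that of CDK6 were PPIP5K2, GFPT1, OGFRL1, PDCD1LG2 and RASA1, out of 9300 genes with a mean of at least 10 CPM. Likeness was measured as the root mean square difference of log2 CPM after each gene was centred on its own mean, and was 0.093, 0.105, 0.117, 0.12 and 0.134 for these 5, against a median of 0.91 over the 9300. PPIP5K2, a kinase that makes inositol pyrophosphates, was at 85.5, 82.5 and 116.5 CPM in siCtrl and 24.1 and 29.2 in siFAM53C. Like CDK6 it was highest in siCtrl replicate 3 and low in both siFAM53C libraries. GFPT1, which opens the hexosamine pathway, was at 125.7, 143.4 and 203 CPM in siCtrl and 40.7 and 59.8 in siFAM53C. RASA1, a GTPase-activating protein of RAS, was at 84.6, 76.5 and 106.6 CPM in siCtrl and 24.6 and 31.5 in siFAM53C. The log2 fold changes of the 5 genes ran from -1.83 to -1.55. Since a profile near that of CDK6 contains the difference between conditions, these values are a description and no further evidence of a fall. CCND1, CCND3 and CDK4 ranged over 0.49, 0.21 and 0.74 in log2 CPM, less than the limit of 1 for naming near profiles.

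The heptamer GACAAGA, looked up after these genes were known, occurs 3 times in the longest annotated 3' UTR of PPIP5K2, 2 times in that of OGFRL1 and 1 time in that of RASA1, and was not found in those of GFPT1 and PDCD1LG2. UTRs of like length hold it in 57.8%, 30.5% and 5.32% of cases for PPIP5K2, OGFRL1 and RASA1, and in 29.9% and 7.7% for GFPT1 and PDCD1LG2. Any part of it in the profiles was not tested.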
